A study of Rattus norvegicus with 17 samples.

Results

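The Bcl2 family decides whether a T cell under stress lives or dies by controlling the mitochondrial outer membrane. Here 10 of its genes were followed in CD4+ T cells of rats on 3 vitamin D diets, out of 14506 genes that the array table names. The members are 3 pro-survival genes (Bcl2, Bcl2l1, Mcl1), 2 genes of pore-forming proteins (Bax, Bak1) and 5 genes of BH3-only death proteins (Bcl2l11, Bad, Bid, Bbc3, Pmaip1). They were chosen by name, and each was read from the row of the table that is annotated to that symbol alone and has the highest mean over the 17 arrays. All 10 lay above the filter on dim genes and were tested.

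The study compared gene expression of T helper cells between diets that differ in vitamin D. Female Dark Agouti rats, an inbred strain, ate a deprived diet (0 IU of vitamin D, 5 arrays), the regular diet (2 IU, 6 arrays) or a supplemented diet (10 IU, 6 arrays) for 5 weeks before immunization with myelin oligodendrocyte glycoprotein and until the end of the experiment. The immunization induces encephalomyelitis, a disease used to model multiple sclerosis, and all 3 groups received it, so no group shows unimmunized cells. CD4+ T cells were sorted from inguinal lymph nodes 7 days later, and RNA of each sample was measured on 1 whole-transcript array. The labels do not say to how much feed the IU refer.

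In healthy lymphocytes Bcl2, Bcl-xL (the product of Bcl2l1) and Mcl1 hold Bax and Bak in check. BH3-only proteins sense missing cytokines, DNA damage or death receptor signals. They occupy the pro-survival proteins or act on Bax and Bak directly, after which Bax and Bak open the outer membrane, cytochrome c escapes and caspases are activated. In T cells, interleukin 7 maintains Bcl2, antigen receptor and cytokine signals maintain Mcl1, whose protein is short-lived, and Bcl2l11 (Bim) is the main killer when an immune response contracts. Much of this control acts on protein, which arrays do not measure.

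Values are log2 expression values, so that a difference of 1 is a doubling. A difference is the mean on the first diet minus the mean on the second, with the standard error (SE) of 1 limma model over all 17 arrays, and a member is said to rise or fall where its p-value, adjusted with Benjamini-Hochberg over the 10879 genes tested, is under 0.05. The level of one row says nothing about the level of another, because probes differ in brightness.

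Over the 3 diets, 4 of the 10 members differed in limma's moderated F test, beside 45.3% of all genes tested. They were Mcl1 (adjusted p = 0.000998), Pmaip1 (adjusted p = 0.00523), Bcl2 (adjusted p = 0.011) and Bak1 (adjusted p = 0.0334). Both pro-survival and pro-death genes are among them, and all 4 had their lowest mean on the supplemented diet. Mean levels were ordered supplemented, regular, deprived from low to high for Bcl2 and Mcl1, and supplemented, deprived, regular for Bak1 and Pmaip1. Neighbours in these orders did not all differ beyond their spread, as each comparison gives. In sorted bulk cells, fewer cells of a type and less RNA per cell cannot be told apart.

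The bases before the annotated start of these 4 genes are shown because each passed the F test. Whether the genes share any control was not tested. Sequences are from RefSeq (build GRCr8), 250 bases ending at the base before the start, 5′ to 3′ on the strand of the gene. The stretches lie at chr13:23366901-23367150 (minus strand) for Bcl2, chr2:185907918-185908167 (plus strand) for Mcl1, chr20:5110975-5111224 (minus strand) for Bak1 and chr18:62255720-62255969 (plus strand) for Pmaip1. Capitals mark the GC box GGGCGG on either strand.
Bcl2: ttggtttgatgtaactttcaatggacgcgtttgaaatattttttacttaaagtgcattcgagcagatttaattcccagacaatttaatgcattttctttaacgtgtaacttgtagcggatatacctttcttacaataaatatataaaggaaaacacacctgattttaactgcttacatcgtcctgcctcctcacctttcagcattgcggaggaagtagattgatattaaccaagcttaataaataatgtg
Mcl1: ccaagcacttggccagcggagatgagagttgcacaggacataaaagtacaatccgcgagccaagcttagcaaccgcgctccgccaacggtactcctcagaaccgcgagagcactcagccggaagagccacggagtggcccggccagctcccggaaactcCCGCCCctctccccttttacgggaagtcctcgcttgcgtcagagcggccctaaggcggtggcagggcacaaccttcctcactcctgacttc
Bak1: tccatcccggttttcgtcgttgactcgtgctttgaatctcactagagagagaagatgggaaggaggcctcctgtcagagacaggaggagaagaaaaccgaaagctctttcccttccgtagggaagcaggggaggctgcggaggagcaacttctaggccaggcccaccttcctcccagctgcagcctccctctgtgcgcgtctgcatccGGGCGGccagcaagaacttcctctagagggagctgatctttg
Pmaip1: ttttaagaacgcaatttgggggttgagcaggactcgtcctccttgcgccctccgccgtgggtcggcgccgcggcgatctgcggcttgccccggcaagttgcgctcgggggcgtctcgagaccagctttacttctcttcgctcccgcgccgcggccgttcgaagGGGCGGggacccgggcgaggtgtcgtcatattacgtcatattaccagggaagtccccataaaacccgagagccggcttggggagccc
The Bcl2 stretch is rich in A and T (33.6% G and C), while Mcl1 (62%), Bak1 (57.6%) and Pmaip1 (64.8%) are richer in G and C. Of 6 motifs searched on both strands, 3 of these 4 stretches hold only a GC box and the Bcl2 stretch holds none. The GC box occurs in 30.5% of 33465 such stretches over the genome. The other motifs were the STAT element TTCNNNGAA (7.67% of stretches), the FOXO core GTAAACA (3.22%), the cAMP response element TGACGTCA (1.59%) and the nuclear receptor half-sites AGGTCA (14.1%) and AGTTCA (12.2%). No 2 of these motifs overlapped in the 4 stretches. Among the other members with a stretch in the table, Bcl2l1 (before 2 of its 4 starts) and Bad hold the STAT element. The 2 Bcl2l1 stretches overlap and hold the same matches. Bcl2l11 and Bad hold the FOXO core. Bcl2l11 and Bid, which did not pass, hold the GC box too, so 5 of the 8 members with a stretch hold it. No stretch was listed for Bax and Bbc3. A match is a run of letters and not a binding site, and a missing match says nothing of the factor.

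**Figure D1:**
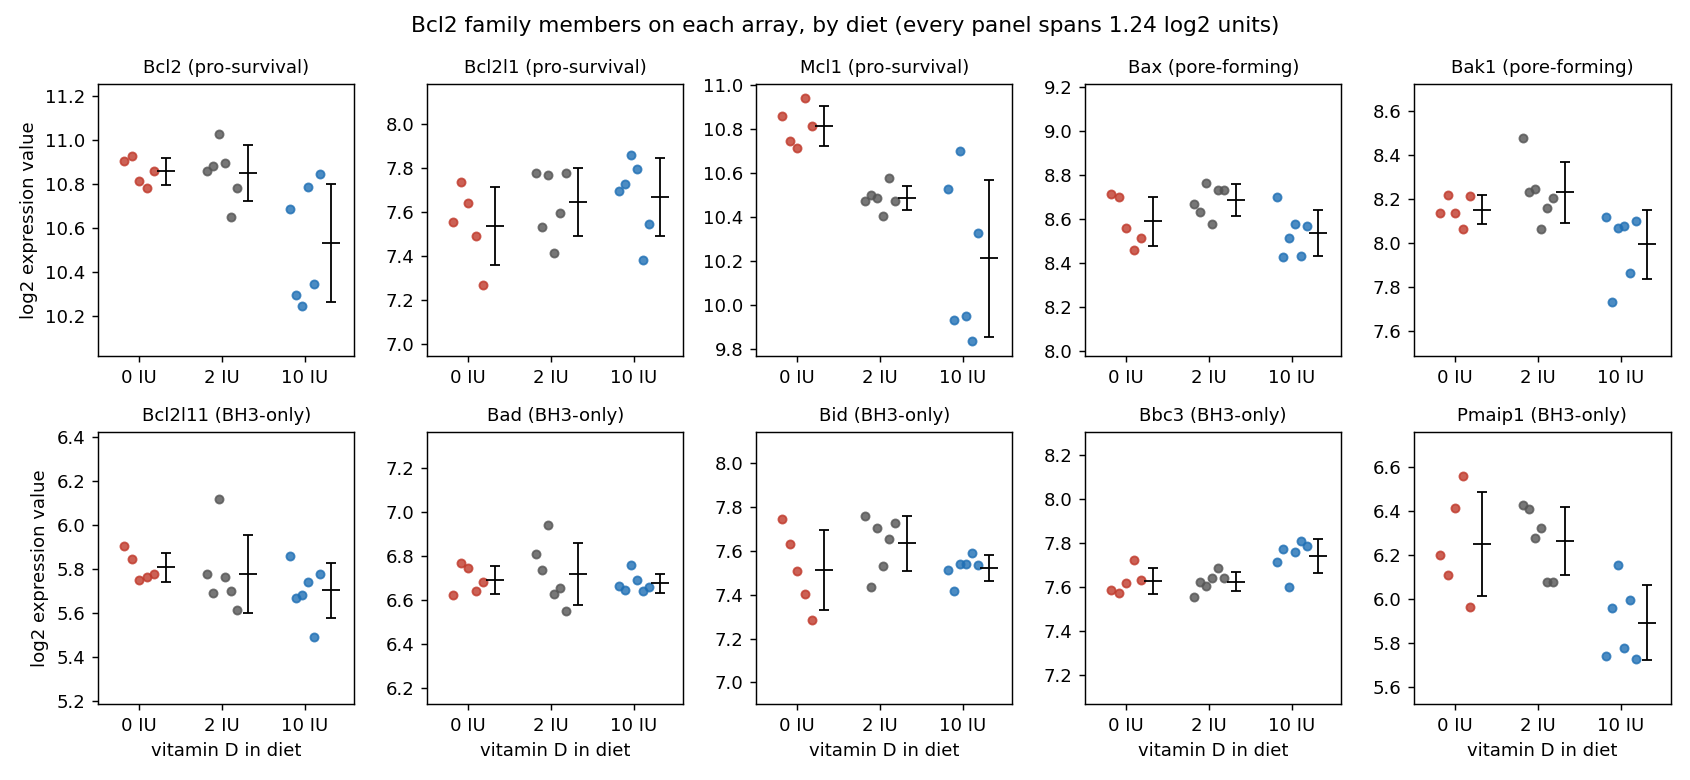
Log2 expression value (vertical axis, the same span in every panel) of the 10 members on each array, by vitamin D in the diet (0, 2 and 10 IU). Points are arrays, and bars beside them are the mean ± SD of 5, 6 and 6 arrays. Mcl1 steps down from 0 to 10 IU, with supplemented arrays spread from 9.83 to 10.70, and the supplemented values of Bcl2 fall into a low and a high set.

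Mcl1, the short-lived pro-survival protein that T cells need at every stage, was the member with the largest difference between diets. Its values were 10.86, 10.75, 10.71, 10.94 and 10.81 on the 5 deprived arrays. The regular arrays ran from 10.40 over a median of 10.48 to 10.58, and the supplemented arrays from 9.83 over a median of 10.14 to 10.70. All deprived arrays were above all regular and all supplemented arrays (17.7% of all genes tested had every supplemented array below every deprived one), while the supplemented arrays lay on both sides of the regular ones. From the deprived to the supplemented diet the gene was lower by -0.60 (SE 0.12, n = 6 and 5, adjusted p = 0.000277), that is to 65.8% of the deprived level. The difference was -0.36 after quantile normalization (adjusted p = 0.0138), and it missed the threshold with the macrophage marker mean as a covariate (-0.53, adjusted p = 0.0647) and with array spread as a covariate (-0.0287, adjusted p = 0.979). The SD was 0.0896 on the deprived, 0.0556 on the regular and 0.358 on the supplemented diet, so 1 diet carried most of the spread.

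Against the regular diet, Mcl1 missed the threshold in both directions of dose. It was at -0.27 on the supplemented diet (SE 0.11, adjusted p = 0.0603, 95% interval -0.50 to -0.0437), with 4 of 6 arrays under the regular mean. It passed without supplemented replicate 3 (adjusted p = 0.00483) or replicate 1 (adjusted p = 0.0238), the 2 arrays that were highest. It shrank to -0.084 with cyclic loess (adjusted p = 0.587), to -0.0866 with quantile normalization (adjusted p = 0.574) and to -0.11 without supplemented replicates 2 and 5 (adjusted p = 0.464). On the deprived diet it was at 0.33 (SE 0.12, adjusted p = 0.154, 95% interval 0.0876 to 0.57) although 5 of 5 arrays were above every regular array, which 4.52% of all genes tested also showed. With only these 2 diets fitted, so that the wide supplemented arrays do not enter the spread, it passed (adjusted p = 0.0049).

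A dimmer row of the table, also annotated to Mcl1 alone, ran the same way with smaller steps. Its means were 7.15 ± 0.0562 on the deprived diet (SD, n = 5), 7.07 ± 0.103 on the regular diet (SD, n = 6) and 7.00 ± 0.154 on the supplemented diet (SD, n = 6). The difference between the supplemented and the deprived diet was -0.15 (SE 0.07, adjusted p = 0.109 over all rows of the table) and did not pass. The size of the Mcl1 difference thus rests on the brighter row.

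Bcl2, the founding pro-survival gene and the one interleukin 7 maintains, fell on the supplemented diet relative to both others in the deposited values, and neither call held after quantile normalization or cyclic loess. The deprived values were 10.91, 10.93, 10.81, 10.78 and 10.86. Regular values ran from 10.65 over a median of 10.87 to 11.03, and supplemented values from 10.24 over a median of 10.51 to 10.85. Supplemented replicates 2, 3 and 5 were at 10.30, 10.24 and 10.34, below every array of the other diets, and the other supplemented arrays overlapped with those diets. Bcl2 fell by 0.32 relative to the regular diet (SE 0.09, n = 6 and 6, adjusted p = 0.013), to 80.3% of the regular level, and by 0.32 relative to the deprived diet (SE 0.10, adjusted p = 0.0105). After quantile normalization the differences were -0.13 (adjusted p = 0.284) and -0.091 (adjusted p = 0.473). The deprived and regular means were 0.0079 apart (95% interval -0.20 to 0.21).

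The arrays that were low for Bcl2 were not all low for Mcl1. Supplemented replicate 3 had the lowest Bcl2 value and, at 10.70, the highest supplemented Mcl1 value, while supplemented replicate 4 had Bcl2 at 10.78 and Mcl1 at 9.95. Replicates 2 and 5 were low for both. These 2 arrays also had the narrowest spread of values over the whole table (SD 1.911 and 1.908, against 1.951 to 1.972 on the other supplemented arrays). Without them, Bcl2 no longer passed against the regular diet (-0.21, adjusted p = 0.125) or the deprived diet (-0.22, adjusted p = 0.0928), nor did Bak1 against the regular diet (-0.14, adjusted p = 0.16). Mcl1 still fell relative to the deprived diet (-0.44, adjusted p = 0.00279), and Pmaip1 relative to the regular diet (-0.42, adjusted p = 0.0109).

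Bcl2l1, which encodes Bcl-xL and is induced when T cells are activated, gave no difference that passed. Its values on the deprived diet were 7.55, 7.74, 7.64, 7.49 and 7.27. They ran from 7.41 over a median of 7.68 to 7.78 on the regular diet, and from 7.38 over a median of 7.71 to 7.86 on the supplemented diet. The 3 ranges overlap almost entirely. The difference between the supplemented and the regular diet was 0.0239, with a 95% interval of -0.16 to 0.21, so a change of the size seen for Bcl2 lies outside that interval. Its second, dimmer row had means of 7.03, 7.06 and 7.17 on the deprived, regular and supplemented diet, and did not pass either.

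**Figure D2:**
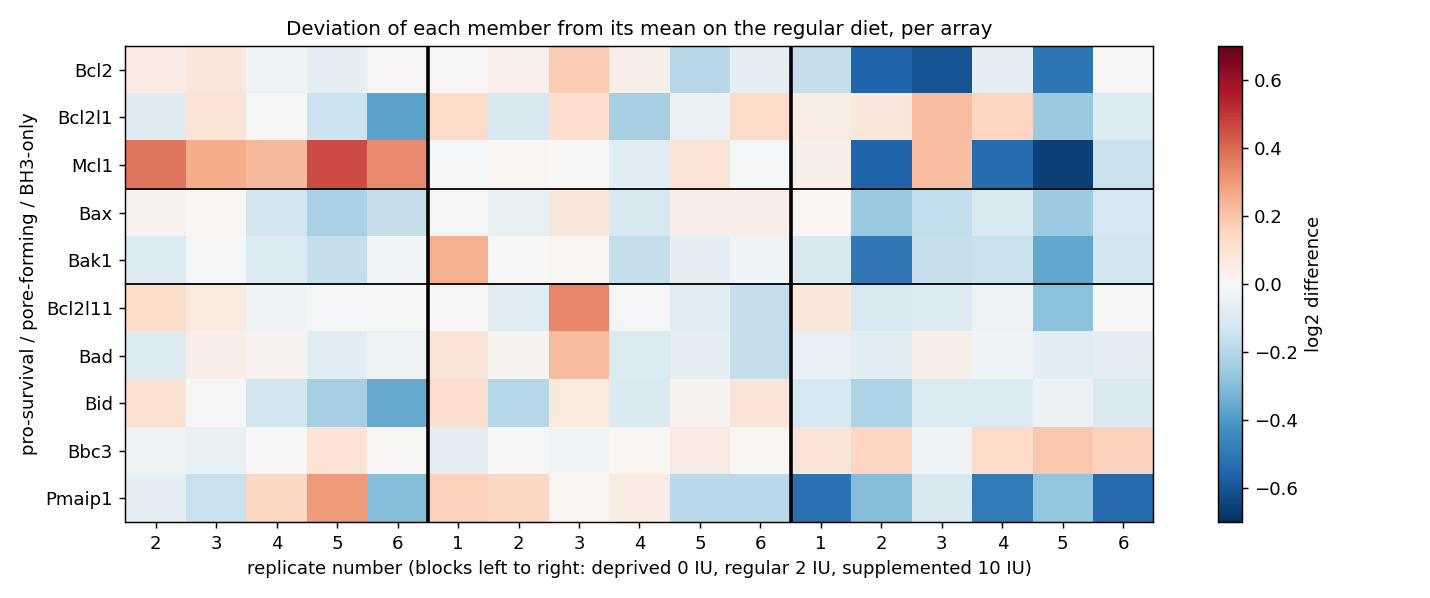
Deviation of each member (rows) on each array (columns) from its mean over the regular arrays, in log2 units; red is above and blue below. Blocks from left to right are the deprived, regular and supplemented arrays, numbered by replicate. The Mcl1 row is red in all 5 deprived arrays, and the dark blue cells of Bcl2 and Mcl1 fall on partly different supplemented arrays.

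Pmaip1, which encodes Noxa, a BH3-only protein that binds Mcl1 and is a known p53 target, fell on the supplemented diet. The deprived arrays were at 6.20, 6.11, 6.41, 6.56 and 5.96. Regular arrays ran from 6.08 over a median of 6.30 to 6.43, and supplemented arrays from 5.72 over a median of 5.87 to 6.15. All 6 supplemented arrays lay under the regular mean, with an overlap of the ranges at the edge. Pmaip1 fell by 0.37 relative to the regular diet (SE 0.10, adjusted p = 0.00554), to 77.2% of its level, and by 0.36 relative to the deprived diet (SE 0.10, adjusted p = 0.00698). Between the deprived and the regular diet the difference was -0.0155 (95% interval -0.23 to 0.20).

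Of the pore-forming genes, Bak1 fell on the supplemented diet and Bax did not pass. Bak1, whose product sits in the outer membrane of mitochondria, was at 8.13, 8.21, 8.14, 8.06 and 8.21 on the deprived diet. It ran from 8.06 over a median of 8.22 to 8.48 on the regular diet and from 7.73 over a median of 8.07 to 8.12 on the supplemented diet. It fell by 0.24 relative to the regular diet (SE 0.07, adjusted p = 0.018), and the call was lost without supplemented replicate 2, the lowest array (adjusted p = 0.0528), or regular replicate 1, the highest (adjusted p = 0.0542). Relative to the deprived diet it was at -0.16 (SE 0.08, adjusted p = 0.0961), and it passed there with the B cell marker mean as a covariate (-0.25, adjusted p = 0.047) and after median centring (-0.26, adjusted p = 0.018). That difference was -0.0251 with cyclic loess (adjusted p = 0.811), -0.024 with quantile normalization (adjusted p = 0.818) and -0.0984 with the macrophage mean (adjusted p = 0.626).

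Bax, the cytosolic partner of Bak that moves to mitochondria, gave different calls in its 2 rows. The brighter row had means of 8.59 ± 0.112 on the deprived (SD, n = 5), 8.69 ± 0.0721 on the regular (SD, n = 6) and 8.54 ± 0.104 on the supplemented diet (SD, n = 6). Its difference between the supplemented and the regular diet was -0.15 (SE 0.06, adjusted p = 0.0694), and it passed without supplemented replicate 1 (adjusted p = 0.0292) and after median centring (-0.23, adjusted p = 0.012). It was near 0 with cyclic loess (-0.0195, adjusted p = 0.825) and with quantile normalization (-0.0175, adjusted p = 0.844). In the other row, annotated to a single GenBank record, the same difference was -0.28 (SE 0.08, adjusted p = 0.0167 over all rows of the table). Deprived and regular Bax means were closer, at -0.0963 (adjusted p = 0.491).

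The other BH3-only genes gave no difference that passed. Bbc3, which encodes Puma, the p53-induced protein that binds every pro-survival relative, was the one member with a higher mean on the supplemented diet than on both others among the pro-death genes. It was at 7.59, 7.57, 7.62, 7.72 and 7.63 on the deprived arrays, from 7.56 over a median of 7.63 to 7.68 on the regular arrays and from 7.60 over a median of 7.77 to 7.81 on the supplemented arrays. In 5 of 6 supplemented arrays it lay above the highest regular value, and replicate 3 did not. The differences were 0.12 (SE 0.05, adjusted p = 0.0916) from the regular and 0.11 (SE 0.06, adjusted p = 0.092) from the deprived diet. Without supplemented replicate 3 both passed (adjusted p = 0.0342 and adjusted p = 0.0346), and both passed after quantile normalization (0.19, adjusted p = 0.0176, and 0.20, adjusted p = 0.0128). After median centring they were at 0.0374 (adjusted p = 0.595) and 0.00984 (adjusted p = 0.894).

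Bcl2l11, Bad and Bid differed little. Bcl2l11 (Bim) ran from 5.75 to 5.91 on the deprived, 5.61 to 6.12 on the regular and 5.49 to 5.86 on the supplemented arrays. Bad, which growth factor signals keep phosphorylated and inactive, ran from 6.62 to 6.76, 6.55 to 6.94 and 6.64 to 6.76 on the same diets. Bid, which caspase 8 cleaves to link death receptors to mitochondria, ran from 7.28 to 7.74, 7.43 to 7.76 and 7.41 to 7.59. In each gene the 3 ranges overlap. Bcl2l11 was at -0.10 on the supplemented relative to the deprived diet (adjusted p = 0.283) and passed there after quantile normalization (-0.23, adjusted p = 0.0437). For the supplemented against the regular diet the 95% intervals were -0.23 to 0.0838 for Bcl2l11, -0.17 to 0.0856 for Bad and -0.26 to 0.0404 for Bid.

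**Figure D3:**
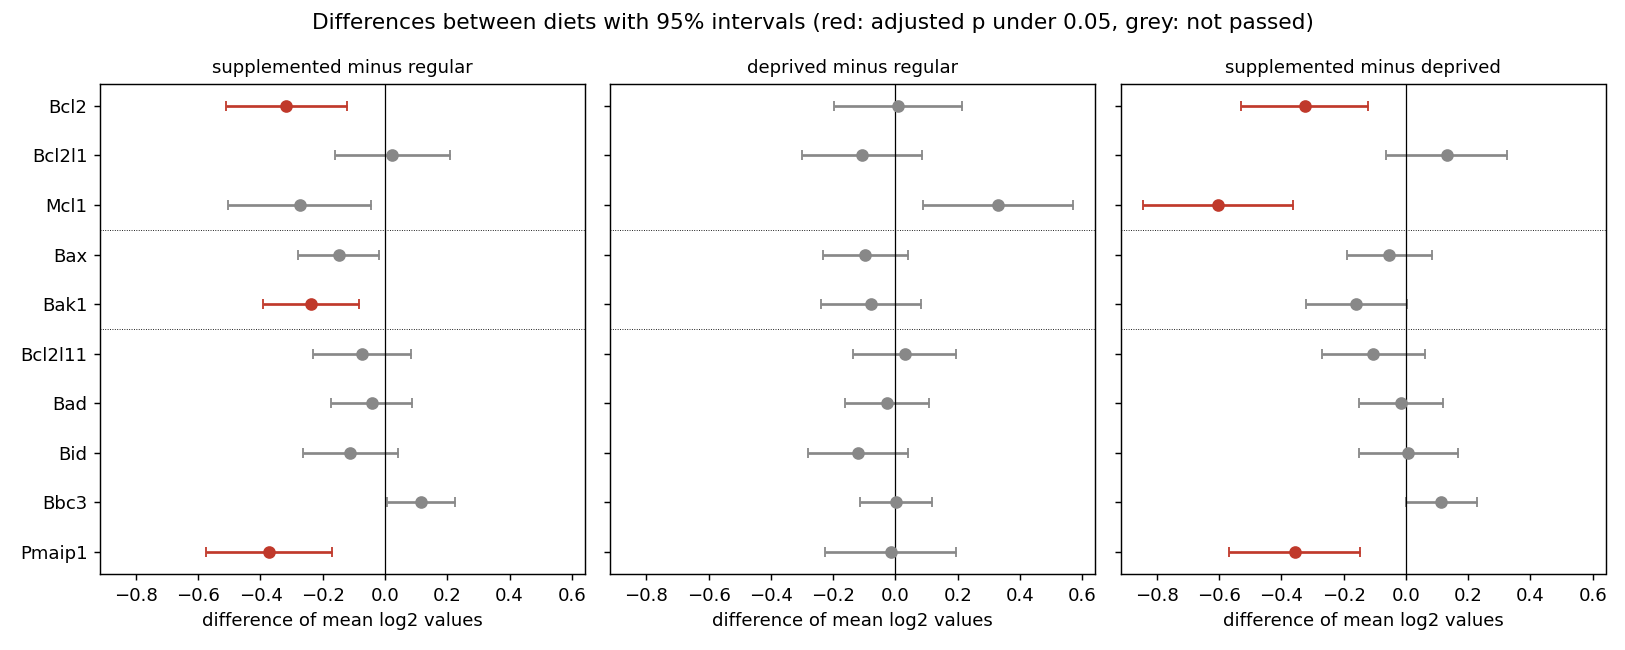
Difference of mean log2 values for each member (rows, grouped as pro-survival, pore-forming and BH3-only by dotted lines) in the 3 comparisons, with 95% intervals of the limma model. Red marks an adjusted p under 0.05 and grey one that missed it. The red points are Bcl2, Bak1 and Pmaip1 against the regular diet and Bcl2, Mcl1 and Pmaip1 against the deprived diet, all below 0.

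Pro-survival and pro-death genes are set side by side here, first in the deposited values. The supplemented and the regular diet differed in 1 of 3 pro-survival genes and 2 of 7 pro-death genes. Each was lower and none higher. That is 3 of 10 members, beside 33.7% of all genes that changed (22.9% fell and 10.8% rose), a share near the background. The median difference was -0.27 for the pro-survival genes and -0.11 for the pro-death genes, beside 0.000613 for all genes tested. After quantile normalization these medians were -0.0866 and -0.0848, so that the pro-survival and pro-death genes no longer stood apart. With cyclic loess they were -0.084 and -0.0961. Under both normalizations the members called against the regular diet were Pmaip1, lower, and Bbc3, higher. Beside them, 1053 of all genes rose and 1724 fell with quantile normalization, and 945 rose and 1745 fell with cyclic loess. Between the supplemented and the deprived diet, 2 of 3 pro-survival genes and 1 of 7 pro-death genes fell and none rose, beside 28.6% of all genes that fell and 18.6% that rose, with medians of -0.32 and -0.0531, against 0.00105 for all genes. After quantile normalization the medians against the deprived diet were -0.091 and -0.024, and after cyclic loess -0.0576 and -0.0251. Under both, Mcl1, Bcl2l11 and Pmaip1 were called lower and Bbc3 higher against the deprived diet. Beside them, 1457 of all genes rose and 2109 fell with quantile normalization, and 1370 rose and 2163 fell with cyclic loess. Between the deprived and the regular diet none of the 10 passed in limma (Mcl1 alone had an unadjusted p under 0.05, beside 16.7% of all genes, and it alone passed with array weights), beside 1.67% of all genes that changed, 1.49% higher and 0.184% lower. The comparisons share their arrays, so they are not independent of each other.

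The mean deviation from the regular means, taken over the members of each kind, was followed per array as a description. For the pro-survival genes it averaged 0.0766 ± 0.0593 on the deprived (SD, n = 5) and -0.19 ± 0.179 on the supplemented diet (SD, n = 6), the regular diet being 0 by definition. For the pro-death genes it averaged -0.0438 ± 0.048 and -0.125 ± 0.0398 on the same diets. Pro-survival minus pro-death came to 0.0925 to 0.158 on the deprived, -0.034 to 0.0733 on the regular and -0.31 to 0.0653 on the supplemented arrays. The deprived arrays were above all others. Their pro-death deviations were all below 0, and their pro-survival deviations were above 0 except in replicate 6. That array had -0.0133 for the pro-survival and -0.125 for the pro-death genes. The deprived pro-survival mean was above 0 through the brighter Mcl1 row. For deprived minus regular that row was at 0.33, Bcl2 at 0.0079 and Bcl2l1 at -0.11. The dimmer Mcl1 row was at 0.0809. Supplemented replicates 2, 4 and 5 lay below the regular range, at -0.155, -0.0387 and -0.314, and the other 3 supplemented arrays within it.

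These results share 1 feature of the arrays. The spread of an array (the SD of its values over all rows) was 2.03 to 2.07 on the deprived, 2.00 to 2.06 on the regular and 1.91 to 1.97 on the supplemented diet, and across genes the difference between the supplemented and the regular diet correlated at -0.505 with the mean level, so that bright rows tended to be lower. The same correlation was -0.552 for supplemented minus deprived. It was 0.315 for deprived minus regular, so that bright rows tended to be higher on the deprived diet. The Bcl2 and Mcl1 rows were bright, with means of 10.74 and 10.48 where the dimmest tested gene had 5.32. Pmaip1 was dim at 6.13. After quantile normalization of the rows, Bcl2 passed in neither comparison, and Bak1 was at -0.14 against the regular diet (adjusted p = 0.112). Pmaip1 fell there by 0.46 against the regular diet (adjusted p = 0.0017), and Mcl1 still fell against the deprived diet. Cyclic loess gave the same calls for these 4 members. With the spread as a covariate no member passed in limma, nor did any gene in the comparisons of the supplemented diet (1192 and 1206 genes had an unadjusted p under 0.05). Every supplemented array had a narrower spread than every other array. Spread and the supplemented diet thus cannot be told apart in this fit, and the lost calls decide nothing between them.

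**Figure D4:**
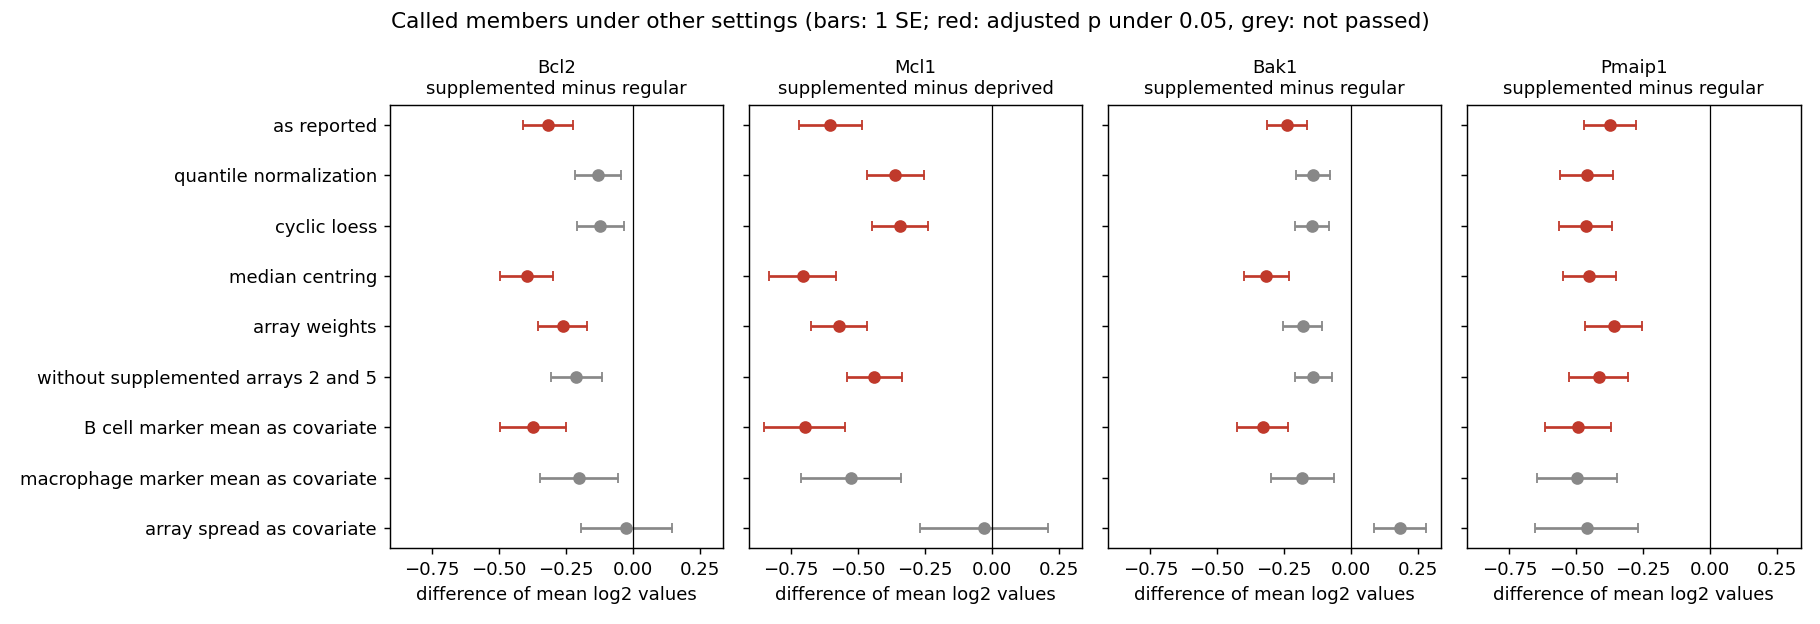
Difference of mean log2 values (horizontal axis, bars 1 SE) of the 4 called members under the reported and 8 other settings (rows), for supplemented minus deprived in Mcl1 and supplemented minus regular in the others. Red marks an adjusted p under 0.05. Pmaip1 and Mcl1 stay red after quantile normalization and cyclic loess, Bcl2 and Bak1 turn grey, and with array spread as a covariate all 4 are grey and Bak1 changes sign.

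Markers of the sorted cells and of other cells moved with the diet too. The mean of the T cell list was 10.12 to 10.35 on the supplemented, 10.37 to 10.59 on the regular and 10.34 to 10.54 on the deprived arrays. Cd4, the sorted surface marker, averaged 9.57 on the supplemented and 10.16 on the regular arrays, and 5 of 12 T cell markers fell on the supplemented diet relative to the regular one, none rising, beside 22.9% of all genes that fell. Of 8 tested B cell markers 6 rose, and of 13 tested macrophage, monocyte and neutrophil markers 3 rose, beside 10.8% of all genes. The mean of the B cell list was 6.07 to 6.52 on the supplemented and 5.88 to 6.25 on the regular arrays, and that of the macrophage list was 5.78 to 5.83 and 5.62 to 5.72 (deprived arrays 5.97 to 6.13 and 5.58 to 5.76). The other lists had 1 of 7 CD8 T and NK cell markers higher and 1 lower, none of 6 dendritic cell markers, 1 of 10 stromal markers higher and 1 lower, and 1 of 2 red blood cell markers higher. Relative to the deprived diet 6 of 12 T cell markers fell, while 5 of 8 B cell markers rose and 1 fell, 4 of 13 macrophage markers rose, 6 of 10 stromal markers rose and 1 fell, and 1 of 6 dendritic cell markers rose, beside 18.6% of all genes that rose and 28.6% that fell. With the B cell mean as a covariate the same 3 members had an adjusted p under 0.05 against the regular diet; with the macrophage mean none did, and Pmaip1 was at -0.50 (adjusted p = 0.0572). Against the deprived diet the macrophage mean left Mcl1 at -0.53 (adjusted p = 0.0647) and Bcl2 at -0.20 (adjusted p = 0.397). Pmaip1 still passed there in limma (-0.49, adjusted p = 0.0462). The macrophage mean of every supplemented array was above that of every other array. This covariate and the supplemented diet thus cannot be told apart, and a call lost with it decides nothing. The part of these cells in the Bcl2 family differences was not tested.

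Genes that act around the family were counted from lists drawn up by known function. Of 11 tested further family genes, 1 rose and 2 fell on the supplemented relative to the regular diet, beside 33.7% of all genes that changed (10.8% rose and 22.9% fell). Bcl2a1, a pro-survival relative induced by NF-kB in activated lymphocytes, fell by 0.58 (SE 0.11, adjusted p = 0.000292), with means of 8.79 on the supplemented and 9.36 on the regular diet. Bnip3l, a mitochondrial protein of mitophagy, fell by 0.21 (SE 0.06) and Bok, a pore-forming relative, rose by 0.22 (SE 0.06). Relative to the deprived diet 2 fell and 2 rose, beside 47.2% of all genes that changed. Bcl2a1 fell there by 0.68 (adjusted p = 5.21e-05), with all its supplemented arrays below all deprived ones, as in 17.7% of all genes tested. Bnip3l fell by 0.24 there, and the rises were the little studied Bcl2l15 (0.27, SE 0.09) and the BH3-only gene Hrk (0.20, SE 0.08).

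Downstream of the pore, 6 of 19 apoptosome and caspase genes fell and none rose on the supplemented relative to the regular diet (median -0.15), a share near the 33.7% of all genes that changed. The flavoprotein gene Aifm1 fell by 0.53 (SE 0.08, adjusted p = 5.68e-05), the outer membrane channel gene Vdac1 by 0.49 (SE 0.10), the cytochrome c gene Cycs by 0.40 (SE 0.09) and Cflar, which encodes the caspase 8 inhibitor FLIP, by 0.29 (SE 0.09). Relative to the deprived diet 12 fell and 2 rose (median -0.29, beside 47.2% of all genes that changed). Aifm1 fell by 0.73 (SE 0.09), Cycs by 0.66 (SE 0.09) and Vdac1 by 0.52 (SE 0.11) there. Xiap, the gene of a caspase inhibitor, fell by 0.33 (SE 0.07, adjusted p = 0.000466), and it is also the 1 gene of this list that rose on the deprived relative to the regular diet (0.28, SE 0.07, adjusted p = 0.0403).

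In the p53 arm 3 of 11 genes rose and 3 fell on the supplemented relative to the regular diet, beside 10.8% of all genes that rose and 22.9% that fell. The p53 targets Zmat3 (0.30, SE 0.06) and Aen (0.28, SE 0.06) rose, while the targets Ccng1 (-0.32, SE 0.08) and Cdkn1a (-0.28, SE 0.10) fell, so the p53 targets Pmaip1 and Bbc3 were not alone in having differences of opposite sign. Relative to the deprived diet 1 rose (Aen, 0.30, SE 0.07) and 5 fell, among them Ccng1 (-0.49, SE 0.09), Tp53inp1 (-0.44, SE 0.12) and Gadd45a (-0.38, SE 0.12), beside 47.2% of all genes that changed. On the deprived relative to the regular diet Zmat3 rose (0.27, SE 0.06, adjusted p = 0.0292) and the other 10 did not pass.

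Among 16 genes of FOXO and cytokine survival signalling, 1 rose and 5 fell on the supplemented relative to the regular diet, a share near the 33.7% of all genes that changed. Stat5b, which carries the interleukin 7 and interleukin 2 signal to the Bcl2 gene, fell by 0.45 (SE 0.08, adjusted p = 0.000167), all supplemented arrays lying below all regular ones, as in 9.92% of all genes tested. The kinase gene Akt2 (-0.41, SE 0.09), the stress factor Ddit3 (-0.28, SE 0.08) and the kinase subunit Pik3cd (-0.25, SE 0.07) fell as well. Stat5a (-0.0251, adjusted p = 0.807) and Il7r (0.0244, adjusted p = 0.765), of the same list, did not pass in limma against the regular diet. Relative to the deprived diet 1 rose and 6 fell, beside 47.2% of all genes that changed, including Ddit3 (-0.60, SE 0.08), Akt2 (-0.47, SE 0.10), Stat5b (-0.36, SE 0.08) and the interleukin 7 receptor gene Il7r (-0.22, SE 0.06). Il7r rose on the deprived relative to the regular diet (0.24, SE 0.06, adjusted p = 0.0491), and the other 15 genes did not pass.

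Of 4 tested genes that set the life of the Mcl1 protein, Usp9x, a deubiquitinase that stabilizes it, rose on both other diets relative to the regular one, by 0.21 on the supplemented (SE 0.06, adjusted p = 0.00678) and by 0.28 on the deprived diet (SE 0.06, adjusted p = 0.0199). The ubiquitin ligase subunit Skp2 rose on the supplemented diet (0.43, SE 0.09, adjusted p = 0.0011). Against the regular diet 10.8% of all genes rose on the supplemented and 1.49% on the deprived diet. None of the 4 passed between the supplemented and the deprived diet in limma, where 47.2% of all genes changed. The largest of these differences was 0.15, for Trim17, with an adjusted p of 0.0855. So few genes say little about the control of the Mcl1 protein, which was not measured.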

How the data were processed

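RNA from sorted CD4+ T cells of 17 samples was measured on 17 Affymetrix whole-transcript rat arrays, with 250 ng of total RNA per sample, per the labels' protocols. The values are the authors' deposited log2 expression values, for which the submitters' processing notes name RMA and Partek 6.0. The log base follows from the span of the values, and no source used here states a probe file or genome build. Arrays have no read depth, and their number limits the precision. Batches were not tested, as no scan dates were given.

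Of 29214 rows, 15310 had 1 gene symbol in the platform annotation, 323 had several and 13581 were not listed; 15279 of the first were found in RefSeq (GRCr8), which was used to update names. Each of 14506 genes was represented by its row with the highest mean, and the lowest 25% were left out, which kept 10879. The 10 members have 13 rows, 3 of them with a second row. All 17 arrays entered 1 model with a mean per diet (limma 3.58.1 under R 4.3.3, functions lmFit and eBayes, 14 residual and 8.19 prior degrees of freedom), and p-values were adjusted with Benjamini-Hochberg over all genes at 0.05. P-values measure how these samples vary, since nothing beyond the labels says how replicates were raised. On data simulated for the supplemented minus regular comparison (10879 genes), 98% of genes changed by 0.6 and 58% of genes changed by 0.3 were recovered. The simulation changed 100 genes at each size and drew independent errors with the same SD on every diet. The data had 3661 calls in this comparison and, for Mcl1, unequal SDs, so these rates need not hold for the reported tests.

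Pairwise correlations of arrays ran from 0.9773 to 0.9954 and no 2 were identical. Same-numbered arrays of different diets had deviations correlated from -0.207 to 0.195 (3 diets, 16 pairs), so the numbers were not taken to pair samples. Members and lists were chosen with earlier results of these data known. Genes named beside the members are, per list and comparison, up to 4 with the smallest p among those past the threshold. The first 2 markers of a list were added where used. Trim17, Stat5a and the Il7r value for supplemented minus regular lie outside this rule and were given after their values were seen. Alternatives were quantile normalization, cyclic loess, median centring, other filters, all rows, trend and robust moderation, array weights, a block for the replicate number, covariates (array spread, B cell or macrophage marker mean), 2-diet fits, a threshold of 0.1, and arrays left out.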

Additional observations from a re-analysis of the deposited data

Results flagged for a closer look

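One value of the members stood far from its group. Bcl2l11 was at 6.121 on regular replicate 3, while the other 5 regular arrays lay between 5.61 and 5.78, so that the gap to the nearest array filled most of the range of the group. Of 30 groups of member values checked this was 1, and chance flags about 1 in 20 groups. The same array also had the highest Bad value of the series (6.94). Without it the difference of Bcl2l11 between the supplemented and the regular diet was -0.00574, and did not pass either way.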

How the results depend on the processing

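Counts of changed genes moved by over 1.5 times as follows. Between the supplemented and the regular diet, 3661 genes became 6901 with all rows tested, 2171 without supplemented arrays 2 and 5, 553 with the macrophage mean as a covariate and 0 with array spread as a covariate (1192 at an unadjusted p under 0.05). Between the deprived and the regular diet, 182 became 40 after quantile normalization, 84 after cyclic loess, 889 with array weights, 68 with array spread, 466 with only these diets, 301 without supplemented arrays 2 and 5 and 407 at a threshold of 0.1. Between the supplemented and the deprived diet, 5132 became 10785 with all rows, 1444 with the macrophage mean and 0 with array spread (1206 unadjusted). The F test's 4927 became 10011, 1107 and 72 under the same 3 settings. Changed members between the supplemented and the regular diet were 5 after median centring, 0 with array spread (1 unadjusted), 1 without supplemented arrays 2 and 5, 0 with the macrophage mean (1 unadjusted) and 6 at a threshold of 0.1. Between the deprived and the regular diet there was 1 with array weights and 1 with only these diets, Mcl1 in both. Between the supplemented and the deprived diet there were 0 with array spread (2 unadjusted), 1 with the macrophage mean (Pmaip1) and 5 at 0.1. The F test gave 0 with array spread (3 unadjusted), 2 without supplemented arrays 2 and 5 and 0 with the macrophage mean (2 unadjusted). The causes were not tested. Median centring shifted the median of all genes by -0.0779 (supplemented minus regular), 0.0251 (deprived minus regular) and -0.103 (supplemented minus deprived), and split the calls into 312 higher and 3343 lower (supplemented minus regular, against 1173 and 2488) and 607 and 4177 (supplemented minus deprived, against 2019 and 3113).

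Leaving out 1 array at a time gave 2936 to 4035, 33 to 244, 4451 to 5444 and 4165 to 5191 changed genes for supplemented minus regular, deprived minus regular, supplemented minus deprived and the F test, and 2 to 5, 0 to 0, 3 to 4 and 3 to 5 changed members. It turned the sign of Bcl2l1 (-0.0222 to 0.0810) and Bad (-0.0768 to 0.00108) for supplemented minus regular, of Bcl2 (-0.0320 to 0.0437), Bcl2l11 (-0.00297 to 0.0985), Bad (-0.0617 to 0.0161), Bbc3 (-0.0219 to 0.0153) and Pmaip1 (-0.0934 to 0.0560) for deprived minus regular, and of Bad (-0.0322 to 0.00375) and Bid (-0.0492 to 0.0656) for supplemented minus deprived.

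No differences that passed turned sign with other settings, except Bak1 and Bcl2 with array spread as a covariate. For deprived minus regular, quantile normalization and cyclic loess gave Bcl2 -0.0396 and -0.0635, Bbc3 -0.0132 and -0.0182, and Pmaip1 0.00976 and 0.0167. For supplemented minus deprived they gave Bax 0.137 and 0.134. Median centring gave Bcl2l1 -0.0546 (supplemented minus regular), Pmaip1 0.0100 (deprived minus regular) and Bid -0.0956 (supplemented minus deprived). Array weights gave Bad 0.00389, Bbc3 -0.00971 and Pmaip1 0.0134 for deprived minus regular. With array spread, supplemented minus regular gave Mcl1 0.167, Bax 0.0822, Bak1 0.184, Bcl2l11 0.194, Bad 0.111, Bid 0.0687 and Bbc3 -0.0483. Deprived minus regular gave Bcl2 -0.0808, Bcl2l11 -0.0506 and Pmaip1 0.0112, and supplemented minus deprived gave Bcl2 0.0578, Bax 0.248, Bak1 0.390, Bcl2l11 0.244, Bad 0.186 and Bbc3 -0.0999. Without supplemented arrays 2 and 5, supplemented minus deprived gave Bax 0.000568 and Bad 0.00135. With the macrophage mean, supplemented minus regular gave Bcl2l1 -0.0625, Bcl2l11 0.0308 and Bad 0.0294, deprived minus regular gave Bcl2 -0.000975, and supplemented minus deprived gave Bcl2l11 0.00876, Bad 0.0631 and Bid -0.111. With the replicate number as a block, which the arrays do not bear out as a pairing, 3625, 145, 5332 and 5032 genes and 3, 0, 4 and 4 members changed, Bak1 being added for supplemented minus deprived (-0.196, adjusted p = 0.0285 in limma), while Bbc3 was at -0.00758 for deprived minus regular and Bid at -0.00259 for supplemented minus deprived. The number of arrays, 17 in all, limits the precision of every member.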

Other observations

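The genes whose values ran most like Mcl1 over the 17 arrays were Otud4 (a deubiquitinase), Clint1 (a clathrin interactor), Ppp1r12a (a subunit of myosin phosphatase), Snx14 (a sorting nexin) and Rngtt (the mRNA capping enzyme). Their Pearson correlations with Mcl1 were 0.947 to 0.959, as a description of arrays that share diets and differ in spread, and 0.867 to 0.912 for deviations from the diet means. Among the other members, Bak1 was the most like Mcl1 at 0.526, with 2815 tested genes more like it, and Bbc3 the least at -0.676.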
